A study of Saccharomyces cerevisiae with 54 samples.

Results

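Hda1 is the catalytic subunit of the yeast Hda1 histone deacetylase complex, which removes acetyl groups from histone tails together with Hda2 and Hda3. Its Arb2 domain lies at the C terminus, after the deacetylase domain, and the question was where on the chromosomes Hda1 was still detected when this domain was deleted. The comparison took the anti-c-Myc ChIP-seq libraries labelled without a spike-in, 2 from Hda1-18myc cells and 2 from Hda1(arb2 delta)-18myc cells, which are 4 of the 54 samples in the series. In both strains 18 copies of the myc tag had been put at the C terminus of HDA1 at its own locus, the Arb2 deletion was made in the genome, and both were grown in YPD, a rich glucose medium, at 30 °C to an OD600 of 0.5 to 0.6. Protein amount is not in these files, so from the peak lists alone less Hda1 on DNA and less Hda1 in the cell cannot be told apart. A strain with no tag (Untag), grown and precipitated alike in 2 libraries, gave the background. For histone H4 acetylation, wild-type and hda1-/- cells grown alike were used, with 2 libraries each labelled without a spike-in. The study describes independent ChIP-seq experiments, but the labels do not tie the libraries to separate cultures, so p-values measure only the spread between these libraries.

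What the authors deposited for each library was a list of peaks, stretches where precipitated DNA exceeded the background of that library, each with a fold enrichment in which 1 means none. Merging the peaks of the 2 Hda1-18myc libraries gave 902 stretches, and the 780 in which both libraries had a peak were taken as bound regions. A bound region was called lost when neither library without the domain had a base of peak in it, lost in 1 library when only one had none, shortened when both had a peak but each covered at least 10 percentage points less of it than either Hda1-18myc library, and kept otherwise. Since the regions were defined on Hda1-18myc, loss is the only direction these classes can show, and the opposite direction was counted separately. Read numbers are not in the lists, so depth is unknown and no counting interval is given.

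Transcribed genes of yeast fall under different polymerases, and these data cover all of them. RNA polymerase II makes mRNA and most snoRNAs, RNA polymerase III makes tRNAs, the 5S ribosomal RNA and a few small RNAs such as SCR1, and RNA polymerase I makes the large ribosomal RNAs. In glucose, ribosomal protein and glycolytic genes are among the most transcribed genes of RNA polymerase II, whereas galactose, meiosis and many respiration genes are low or off.

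Without the Arb2 domain fewer peaks were called, and they were shorter and lower. The Hda1-18myc libraries held 862 and 846 peaks over 893653 and 834009 bp, and the Hda1(arb2 delta)-18myc libraries held 573 and 390 peaks over 429775 and 237124 bp. Both libraries without the domain lay below both with it, and the mean number of peaks fell by 372.5 (854 ± 11.3 against 481.5 ± 129, SD, n = 2 each, exact permutation test, two-sided, p = 0.333, the smallest that 2 against 2 can give). Covered length without the domain was 38.6% of that with it (863831 ± 42175 bp against 333450 ± 136225 bp, exact permutation p = 0.333). The median peak length was 689.5 and 648 bp with the domain and 485 and 397 bp without it, and the median fold was 2.59 and 2.56 against 1.95 and 1.61. Untag cells had 39 and 30 peaks over 42132 and 40928 bp, with a median fold of 1.47 and 1.51. The libraries without the domain also differed from each other, replicate 2 having fewer, shorter and lower peaks than replicate 1.

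**Figure D1:**
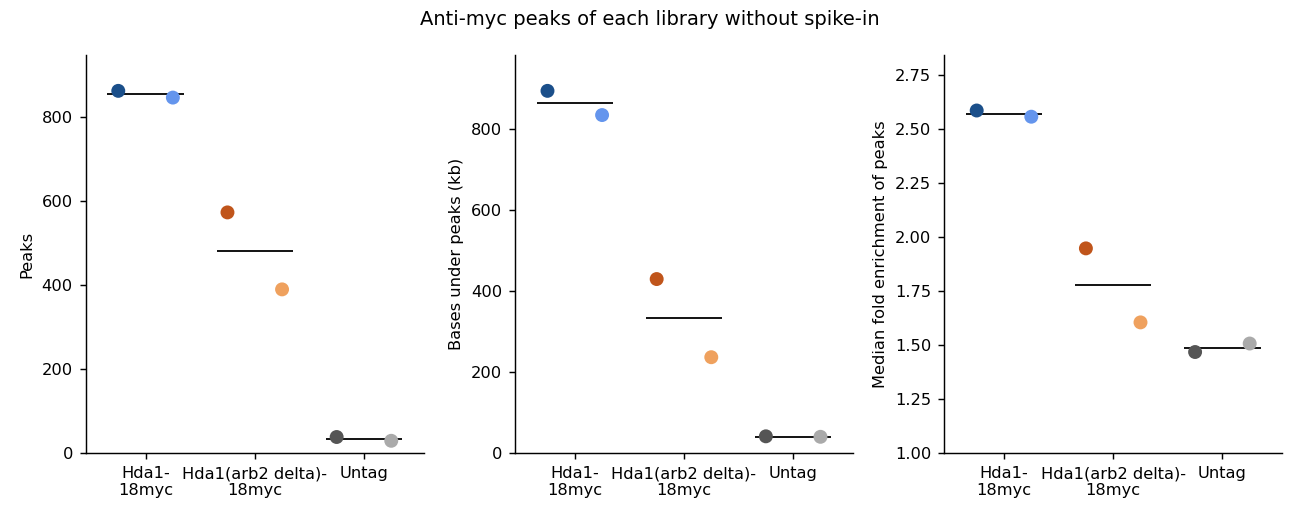
Number of peaks, kilobases under peaks and median fold enrichment of the peaks (y axes; the fold axis starts at 1, no enrichment) for each anti-myc library without spike-in, with a line at the mean of each strain. The Hda1(arb2 delta)-18myc libraries, with 573 and 390 peaks, lie between the Hda1-18myc libraries, with 862 and 846, and the Untag libraries, with 39 and 30.

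Nearly all sites called without the domain were also sites of Hda1-18myc. Of the peaks without the domain, 98.6% and 97.4% overlapped a peak of Hda1-18myc replicate 1, whereas 63.5% and 42.9% of the peaks of that library overlapped one of replicate 1 and replicate 2 without the domain. The 2 Hda1-18myc libraries overlapped each other in 91.3% and 94.4% of their peaks. Of 379 regions called in both libraries without the domain, 376 had a peak in both Hda1-18myc libraries and 2 had none. One of these 2 was chrIV:1211170-1211701, with a fold of 1.25 in each library, near YDR365W-B, MOR1 and the membrane protein gene KEI1. The other was chrVI:623-1038, with folds of 1.35 and 1.47, over part of YFL067W close to the chromosome end.

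Of the 780 bound regions, 234 (30.0%) were lost, 177 (22.7%) were lost in 1 library, 345 (44.2%) were shortened and 24 (3.08%) were kept. In all 177 regions lost in 1 library the peak was missing in replicate 2. The classes followed the height of the peak in Hda1-18myc. The median fold of the strongest peak in the 2 Hda1-18myc libraries was 1.50 and 1.47 in lost regions, 2.93 and 2.94 in regions lost in 1 library, 3.64 and 3.59 in shortened regions, and 3.99 and 3.94 in kept regions. Among the 156 regions lowest by Hda1-18myc fold rank 153 were lost, and among the 156 highest 1 was. Peaks of Untag cells touched 0 lost regions, 1 region lost in 1 library, 32 shortened regions and 10 of the 24 kept regions, so background signal in untagged cells was present mainly where peaks remained. When each library was reduced to its most significant peaks up to the covered length of the smallest library, 224 bound regions were left and 2 of them were lost, while 180 were shortened and 16 kept. With a margin of 25 points in place of 10, 220 regions counted as kept and 149 as shortened.

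**Figure D2:**
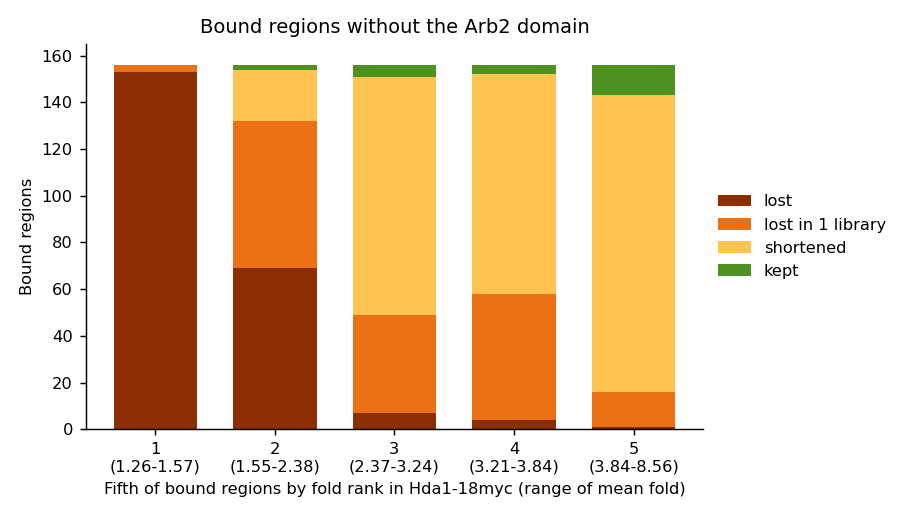
Number of bound regions (y axis) that were lost, lost in 1 library, shortened or kept without the Arb2 domain, in 5 groups of 156 regions by the rank of their fold enrichment in Hda1-18myc (x axis, with the range of the mean fold). Lost regions make up 153 of the lowest group and 1 of the highest.

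In the 369 regions with a peak in all 4 libraries, the median fold was 3.66 and 3.60 with the domain and 2.1 and 1.62 without it. Both values without the domain lay below both with it in 368 of the 369. Fold is relative to the background of each library and these regions had to keep a peak to be counted, so the values are given as a description. The order of the regions was largely the same: across regions, Spearman's rho between the mean Hda1-18myc fold and the fold without the domain was 0.91 in replicate 1 and 0.81 in replicate 2, against 0.97 between the Hda1-18myc libraries. The median distance of the strongest summit from that of Hda1-18myc replicate 1 was 29 bp and 38 bp without the domain and 27 bp in Hda1-18myc replicate 2. In the 149 of these regions over coding regions only it was 88 bp and 95 bp without the domain and 75 bp in Hda1-18myc replicate 2, and 54.4% and 52.3% of summits without the domain lay within 100 bp, against 61.1%.

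**Figure D3:**
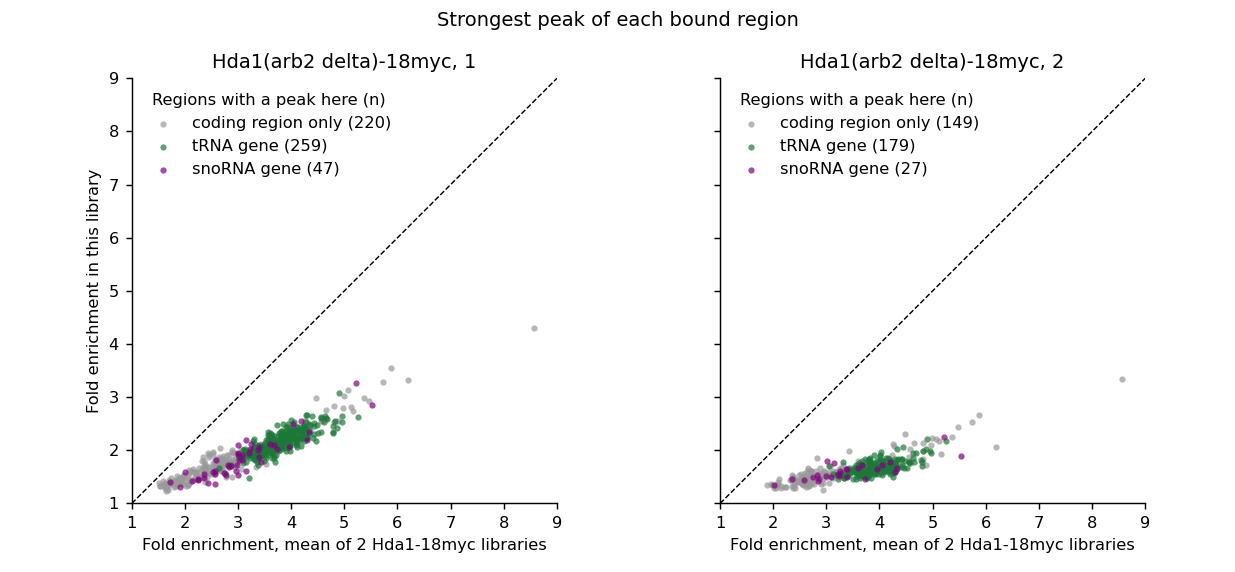
Fold enrichment of the strongest peak of each bound region in the Hda1(arb2 delta)-18myc libraries (y axes) against its mean in the 2 Hda1-18myc libraries (x axes), for regions over tRNA genes, snoRNA genes and coding regions only. Regions with no peak in the library and the few of other kinds are not drawn, and every point drawn lies below the dashed line of equal fold.

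The highest bound region of all lay near the right end of chromosome XIV, at chrXIV:783403-784325 over YNR077C. Its fold was 8.48 and 8.64 with the domain and 4.30 and 3.35 without it, and no Untag peak was there. At the left end of chromosome III, chrIII:13-982 had folds of 7.82 and 8.01 and then 4.77 and 3.68, and was kept. Of its length 99.9% and 56.7% was under peaks with the domain and 52.3% and 44.6% without it. It counted as kept only because Hda1-18myc replicate 2 covered little of it. Another chromosome end differed from these: chrXI:665785-666803 had folds of 5.80 and 5.87 in Hda1-18myc and no peak in either library without the domain, the strongest of all lost regions. Of 18 bound regions within 10 kb of the outermost gene of a chromosome 13 were lost, against 221 of the other 762. The median Hda1-18myc fold of the 2 libraries was 2.55 and 2.45 in these 18 and 2.77 and 2.70 in the others. Repeats are shared between chromosome ends, and how the authors placed reads from them is not stated, so single ends are uncertain.

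Most of the other strongest regions lay over highly transcribed genes, and 6 of the 10 strongest regions also had peaks in Untag cells. At chrVII:881861-884083, over the glyceraldehyde-3-phosphate dehydrogenase gene TDH3, the fold was 5.77 and 5.99 with the domain, 3.54 and 2.66 without it and 1.76 and 1.77 in Untag cells. At chrVII:479054-483022, over PMA1, the proton pump of the plasma membrane, it was 5.67 and 5.80, then 3.28 and 2.54, and 1.69 and 1.61 in Untag cells. At chrII:477122-479475, over TEF2, which encodes translation elongation factor eEF1A, it was 5.47 in each Hda1-18myc library, then 2.92 and 2.44, and 1.47 in each Untag library. The region chrXII:368623-372211, over the cell wall gene CCW12 and the peroxiredoxin gene AHP1, went from 6.17 and 6.23 to 3.32 and 2.06, against 1.57 and 1.52 in Untag cells. Of its length 100% and 86.1% was under peaks with the domain and 43.6% and 38.8% without it. The 24 kept regions included PMA1, YEF3, ADH1, PDC1, PGK1, SNQ2, EXG1, both elongation factor 2 genes EFT1 and EFT2, the histone gene HTA2, 8 tRNA regions and the ribosomal DNA. A region counted as kept when any one of its comparisons was within the margin, so kept regions can be short of a peak in replicate 2, where the EXG1 region was covered to 27.3%, EFT1 to 34.0% and EFT2 to 39.6%. The number kept was 14 without Untag peaks, 10 without Hda1-18myc replicate 2 and 3 without Hda1(arb2 delta)-18myc replicate 1.

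At the ribosomal DNA and a neighbouring region the fold differed little between the strains. At chrXII:451514-468855, over the large ribosomal RNA genes, the fold was 2.47 and 2.49 with the domain, 2.37 and 2.24 without it and 1.54 and 1.50 in Untag cells. At chrXII:489972-490393, where the gene table has no gene, the fold was 2.39 and 2.82 with the domain, 2.81 and 3.02 without it and 2.43 and 2.03 in Untag cells. In the second region the Hda1-18myc values overlapped those of each other strain, and both values without the domain lay above both of Untag cells. The annotated 5S ribosomal RNA genes differed from one another. RDN5-1 was fully covered in all 4 libraries and in Untag cells, RDN5-3 had no peak in any, and RDN5-4 went from 100% in each Hda1-18myc library to 100% and 0%. RDN5-2 was covered to 23.5% and 36.1% with the domain and to 15.1% and 11.8% without it. RDN5-5 and RDN5-6 were fully covered in both Hda1-18myc libraries, at folds of 2.49 to 2.69, and had no peak in either library without the domain. Copies of these genes are near identical, so reads may have been placed in the wrong copy.

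tRNA genes, short genes transcribed by RNA polymerase III, were bound almost without exception. Of 275 nuclear tRNA genes, 270 were at least 50% covered in both Hda1-18myc libraries and 0 were touched by an Untag peak. Without the domain 266 and 186 were covered, 186 in both libraries and 80 in replicate 1 only, whereas YNCI0003C, YNCL0038W, TRR4 and YNCN0006W, each fully covered in both Hda1-18myc libraries, had no peak in either. The median fold of the peaks on tRNA genes was 3.79 and 3.82 with the domain and 2.19 and 1.68 without it. The peaks were narrow, lay over the gene and were narrower without the domain, more so on the downstream side. At the middle of the gene 98.2% of tRNA genes were covered in each Hda1-18myc library, and 96.7% and 67.6% were without the domain. At 200 bp downstream of the middle 97.1% and 95.3% were covered with the domain, and 44.4% and 8.4% without it. At 200 bp upstream it was 97.5% in each Hda1-18myc library, and 74.2% and 18.2% without the domain. Summits stayed close to the same place. In 179 tRNA regions with a peak in all 4 libraries, the median distance from the summit of Hda1-18myc replicate 1 was 12 bp in replicate 2 and 18 bp and 20 bp in the libraries without the domain. The count of tRNA genes covered in both libraries without the domain was 186 with stricter peaks too and 266 without replicate 2. tRNA genes occur in near-identical copies, between which reads may have been split.

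The share of tRNA regions called without the domain was set beside that of coding regions in bands of height. Among regions with a mean Hda1-18myc fold of at least 3 and below 4, 173 of 175 tRNA regions (98.9%) and 27 of 28 regions over coding regions only (96.4%) had a peak in replicate 1 without the domain. In replicate 2 these shares were 58.9% and 89.3%, a difference seen in that library alone and not tested. The tRNA regions of this band were shorter, with a median of 573 bp against 1537 bp, and their median Hda1-18myc fold was 3.63 against 3.30. From a fold of 4, 92.7% of 82 tRNA regions and 100% of 25 coding regions had a peak in replicate 2. The part of region length in this difference was not tested.

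Other genes of small RNAs ran from complete to absent. SCR1, the RNA of the signal recognition particle, was fully covered in all 4 libraries, with folds of 5.84 and 5.80 and then 3.15 and 2.23, and Untag peaks covered 60.0% and 61.9% of it at 1.47 and 1.51. SNR6, the U6 spliceosomal RNA made by RNA polymerase III, was also fully covered in all 4, with folds of 3.10 and 2.98 and then 1.93 and 1.56 and no Untag peak. RPR1, the RNA of RNase P, was covered to 100% and 73.4% without the domain. SNR14, the U4 spliceosomal RNA, fell from 100% in each Hda1-18myc library to 23.8% and 0%, at Hda1-18myc folds of 1.84 and 1.69. Other spliceosomal RNA genes did not fall by the rule. Without the domain LSR1 was covered to 100% and 87.5%, SNR19 to 98.1% and 48.6% and SNR7-L to 98.6% and 0%. TLC1, the telomerase RNA, had no peak in any library. Of 76 snoRNA genes, which guide modification and cleavage of ribosomal RNA, 73 were at least 50% covered in both Hda1-18myc libraries. In both libraries without the domain 30 were. By the rule given below for coding regions 19 of the 76 fell (25%, against 7.38% of all coding regions). Of the 73, 17 fell (23.3%, against 67.4% of coding regions covered alike and 1.48% of tRNA genes covered alike). Untag peaks covered at least 50% of 8 and 6 snoRNA genes, among them the cluster SNR73 to SNR76, which was fully covered in all 6 libraries. SNR81 and SNR31, covered to 100% with the domain at folds of 1.97 and 1.98 and of 2.25 and 2.26, had no peak without it, and SNR52, which RNA polymerase III makes, was covered to 100% in all 4 tagged libraries.

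Peak coverage of genes was then compared over all 6002 nuclear protein-coding genes, as the percent of the coding region, introns included, lying under peaks. A coding region fell when both libraries without the domain covered at least 10 percentage points less of it than both Hda1-18myc libraries, and rose in the opposite case. Of all coding regions 443 (7.38%) fell and 1 (0.0167%) rose. Mean coverage over all coding regions was 8.53% and 7.94% with the domain, 3.98% and 2.24% without it and 0.297% and 0.294% in Untag cells, and 5065 coding regions had no peak in any of the 4 libraries. Of 429 coding regions at least 50% covered in both Hda1-18myc libraries, 289 (67.4%) fell, and 140 were still at least 50% covered in both libraries without the domain, 107 of which did not fall. In 141 of the 429 no base was covered in either library. The 289 that fell had a median Hda1-18myc fold of 1.97 and 1.90 and 2 touched an Untag peak, whereas the 140 of the 429 that did not fall had 3.01 and 2.89 and 38 touched one. The rise was YFL067W, the gene at the chromosome VI end named above, from 0% in each Hda1-18myc library to 38.4% and 33.9%. It was listed at 41.3% and 44.1% in the Hda1-18myc libraries of the spike-in set. With libraries reduced to equal covered length 48 coding regions fell and 40 rose, and the 40 did not include YFL067W.

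The coding regions with the largest fall went from 100% in both Hda1-18myc libraries to 0% in both others, which 25 did. The 10 of them with the highest Hda1-18myc fold were mostly short reading frames next to a stronger site, whose peak had reached over them. YLR111W and YLR112W, with folds of 6.17 and 6.23, shared the CCW12 and AHP1 region, which was shortened and not lost. YPL080C lay in the shortened region of RPS9A and RPL21B, YOL038C-A in that of the ribosomal stalk gene RPP2A, YGR035W-A in that of RPL26B and API2 in that of AGE1, and YKL096C-B lay beside the cell wall gene CWP2 in a region lost in 1 library. YLR159C-A shared the lost region of RDN5-5, and YLL066W-B lay alone in a lost region at chrXII:5552-6002. PMP2, a small regulator of the plasma membrane proton pump, lost all peaks over its coding region, from folds of 2.35 and 2.42, while its region kept a peak of 1.61 in replicate 1.

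Among genes the study follows, YEF3, PMA1, TEF1 and TEF2 were still under peaks without the domain and TKL1 was not. YEF3, which encodes translation elongation factor 3, was covered to 100% in each Hda1-18myc library and to 97.9% and 95.8% without the domain, with folds of 3.72 and 3.47 and then 2.21 and 1.80. An Untag peak covered 22.1% of it in one library and none in the other. PMA1 was covered to 100% in all 4 libraries, but also in both Untag libraries. TEF1 and TEF2, near-identical genes whose reads may be split, were covered to at least 99.7% in all 4, and Untag peaks covered 74.5% and 90.8% of TEF1 and 49.2% and 44.2% of TEF2. At these 4 genes coverage did not fall by the rule, and the fold, given above for PMA1, TEF2 and YEF3, was lower without the domain in both libraries. TKL1, a transketolase of the pentose phosphate pathway, fell from 100% and 99.7% to 0% in each, at Hda1-18myc folds of 1.71. HAP1, a heme-responsive transcription factor, was covered to 33.9% and 30.8% with the domain and to 21.4% and 0% without it. GAL1, GAL3, TKL2, STT4, ARG1 and HDA1 itself had no peak in any of the 4.

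**Figure D4:**
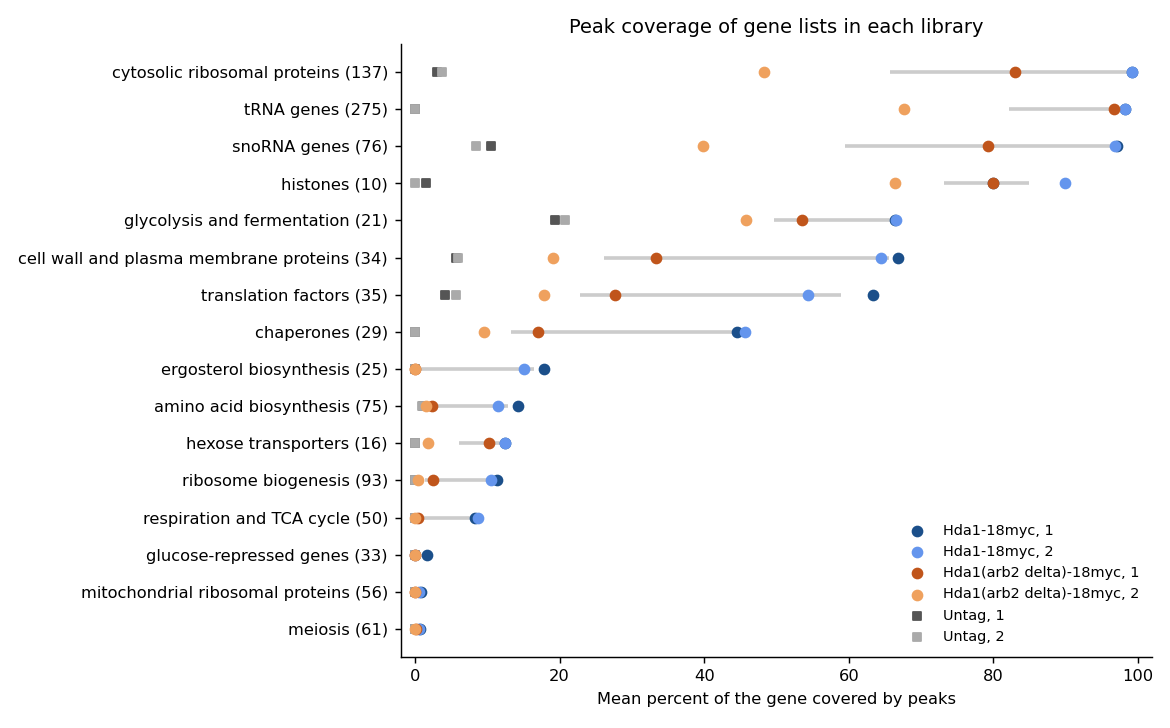
Mean percent of the gene covered by peaks (x axis) for each gene list, with the number of genes in brackets (y axis), in each library. Circles are tagged libraries, squares Untag libraries, and the grey bar joins the means of the 2 strains. Ribosomal protein genes go from 99.2% and 99.1% to 82.9% and 48.3%, and ergosterol genes from 17.8% and 15.0% to 0% in each.

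Ribosomal protein genes had the highest mean coverage of the protein-coding lists in Hda1-18myc, and without the domain their coverage was lowest at the start of the gene. Of 137, 136 were at least 50% covered in both Hda1-18myc libraries, and RPL15B had no peak in any. Mean coverage was 99.2% and 99.1% with the domain and 82.9% and 48.3% without it (exact permutation p = 0.333, 2 against 2), against 3.07% and 3.67% in Untag cells. By the rule 81 (59.1%) fell and none rose, against 7.38% of all coding regions and 67.4% of those bound by Hda1-18myc. With a margin of 25 points 33 fell. RPS28A alone among those 136 had no peak left in either library, with Hda1-18myc folds of 1.87 and 1.86. RPS28B went from 100% in each library to 42.2% and 0%, RPS7B from 100% to 31.0% and 23.7% and RPL38 from 100% to 51.5% and 0%. In contrast RPL29, RPL32, RPS25A, RPS26B and RPS8B were among 10 genes covered to 100% in all 4 libraries, with no Untag peak on these 5. The 56 that did not fall included 14 of the 15 touched by an Untag peak. When libraries were reduced to equal covered length, the direction turned: mean coverage was 18.9% with the domain and 39.2% without it, 7 ribosomal protein genes fell and 21 rose. This step left Hda1-18myc 231 and 260 peaks, with median folds of 3.99 and 3.97. Replicate 2 without the domain kept all its 390. Ribosomal protein genes had lower median folds in Hda1-18myc, 2.84 and 2.70, so the turn does not show more Hda1 on these genes. Many of these genes are duplicated pairs of near-identical sequence, between which reads may have been split.

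Along ribosomal protein genes, coverage with the domain was near complete in every part and without it leaned to the end of the gene. Where peaks cover the whole gene, coverage cannot show the shape of the signal. Whether the loss was particular to the start of the gene was therefore not tested. In the first of 10 equal parts of the coding region mean coverage was 99.1% and 98.1% with the domain and 29.1% and 11.5% without it. In part 9 it was 99.3% in each and then 97.8% and 75.2%. In the 100 bp before the start codon it was 83.4% and 80.5% and then 15.1% and 6.1%, and in the 100 bp after the stop codon 98.5% in each and then 91.3% and 51.7%. Over the 400 bp upstream of the start codon the mean was 54.8% with the domain and 5.54% without it. The strongest summit lay between the middle and the end of the coding region in 67.6% and 68.4% of genes with a peak in Hda1-18myc. Without the domain this share was 74.1% and 81.9%. It was taken over genes with a peak in the library, 136 in each Hda1-18myc library and 135 and 105 without the domain. The gene sets therefore differ, and a shift of the summit within genes was not tested. The median place of the summit was 75.4% and 79.6% of the coding region from its start with the domain and 82.7% and 81.2% without it. In the 293 other bound coding regions the profile was lower throughout without the domain, at 25.4% and 11.4% in part 1 and 43.7% and 25.9% in part 9, where Hda1-18myc had 71.3% and 68.9% and then 95.7% and 94.1%.

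**Figure D5:**
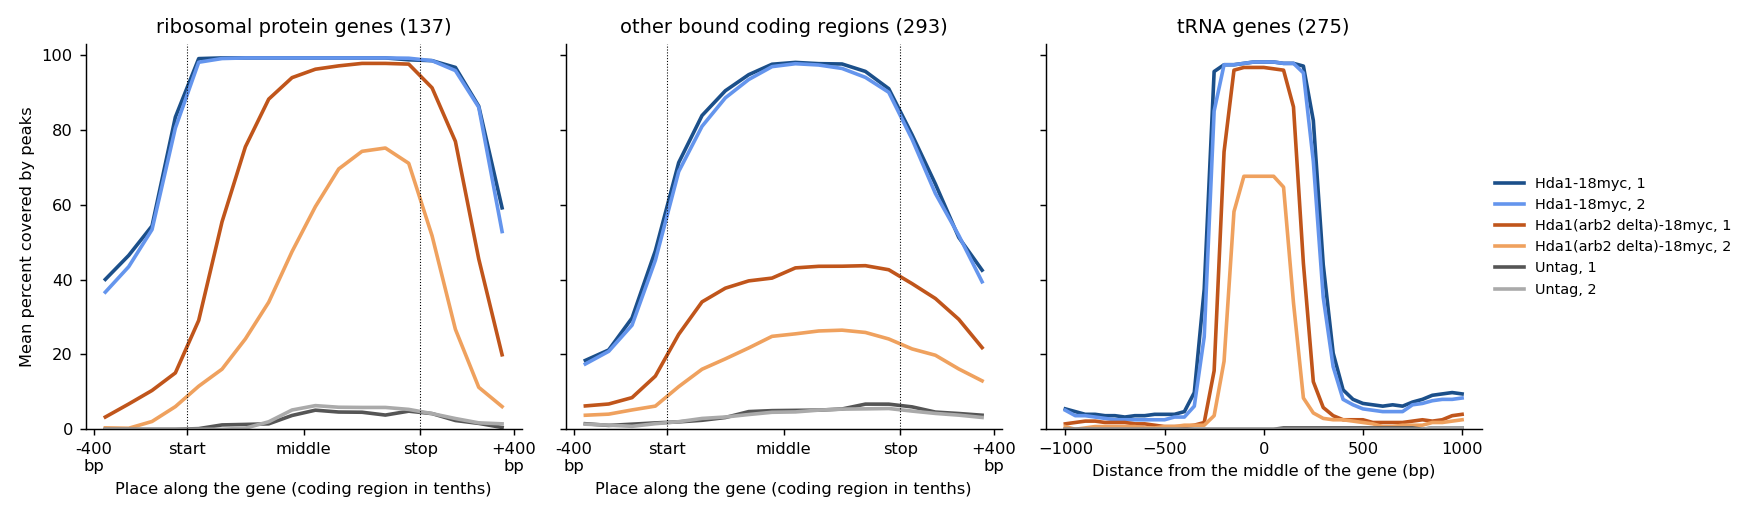
Mean percent covered by peaks (y axis) along ribosomal protein genes and other bound coding regions, each divided into 10 parts with 400 bp on either side (x axes), and around the middle of tRNA genes (x axis, bp), for each library. Without the Arb2 domain the coverage of ribosomal protein genes rises from 29.1% and 11.5% in part 1 to 97.8% and 75.2% in part 9, and the peaks over tRNA genes are narrower.

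Of 21 glycolysis and fermentation genes 4 fell (19.0%, against 7.38% of all coding regions). All 4 were among the 14 bound by Hda1-18myc (28.6%, against 67.4% of all bound coding regions). ADH1, CDC19, ENO2, PDC1 and TDH3 were covered to 100% in all 4 libraries with Hda1-18myc folds of 4.20 to 5.99, and Untag peaks covered 20.4% to 94.7% of them. TPI1 and GPM1 had no Untag peak and were covered to 92.1% or more in all 4, with folds of 3.16 and 3.19 and of 3.20 and 3.29. PFK1 and PFK2, the subunits of phosphofructokinase, fell from 97.9% and 98.1% to 0% in each and from 96.1% and 98.9% to 10.1% and 0%, at Hda1-18myc folds of 1.48 to 1.68. HXK2, the main hexokinase in glucose, fell from 100% to 33.7% and 0%, and TDH2 from 100% to 86.9% and 65.7%, at folds of 2.42 and 2.44. PGI1, phosphoglucose isomerase, did not fall by the rule, with 95.4% and 20.8% from 100% at lower folds of 2.08 and 1.99. The hexose transporters HXT1 and HXT3, the 2 bound of 16, fell from 100% to 77.5% and 29.9% and to 86.0% and 0%.

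None of the 10 histone genes fell by the rule, against 7.38% of all coding regions and 67.4% of bound ones. Of 10 genes 8 were covered to 100% in both Hda1-18myc libraries, and all 8 were also at 100% in replicate 1 without the domain. In replicate 2 they ranged from 34.6% at HTB2 to 100% at HHF1 and HTA1, and of these 8 only HHT2 had an Untag peak, over 15.3% in one library. Their median fold was 2.49 and 2.51 with the domain and 1.90 and 1.48 without it, beside 2.84 and 2.70 and then 1.76 and 1.50 for the ribosomal protein genes. The variant HTZ1 was covered in one Hda1-18myc library only, and the linker histone HHO1 in none.

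Among bound translation factor genes 10 of 18 fell (55.6%), among bound chaperone genes 9 of 13 (69.2%) and among bound cell wall and plasma membrane genes 15 of 22 (68.2%), shares near the 67.4% of all bound coding regions. Of all 35 translation factor genes 16 fell (45.7%, against 7.38% of all coding regions), among them subunits of initiation factor 3 (NIP1 from 64.7% and 77.4% to 0% in each, TIF34 from 61.6% and 58.2% to 0%), poly(A) binding protein PAB1 and the helicase DED1, which went from 100% to 82.8% and 0%. HYP2, which encodes eIF5A, was covered to 98.7% and 93.0% without the domain with no Untag peak. Of 29 chaperone genes 10 fell (34.5%), including KAR2 of the endoplasmic reticulum (86.7% and 100% to 0%), HSP60 of mitochondria (89.1% and 92.7% to 0%) and CPR1, cyclophilin (100% to 0%). The ribosome-associated SSB1 and the cytosolic SSA2 did not, at 93.8% and 81.3% and at 98.0% and 84.4% without the domain. The fold given for a gene is that of the strongest peak touching it, which can be centred on a neighbour. SSA1, touched by a peak at folds of 3.92 and 3.77, fell from 72.5% and 72.8% to 0% in each. The mitochondrial SSC1, at 1.87 and 1.98, did not fall, with 96.3% and 0%. Of 34 cell wall and plasma membrane genes 16 fell (47.1%). CWP1, TIP1, PIR1 and SCW4 went from at least 91.0% to 0% in each library, whereas GAS1 and HSP150, with folds of 2.64 to 2.77, were covered to 77.3% or more. SUN4 fell from 100% to 51.8% and 0%. The strongest peak touching it, at 4.98 and 5.15, had the same folds as that of RPL9B. RPL9B had 3.13 and 2.22 without the domain, where SUN4 had 1.49 and no peak. UTR2, at 1.92 and 2.03, did not fall, with 92.9% and 52.1%.

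In the next 4 lists, too, more coding regions fell than the 7.38% of all, and few were bound. Of 25 ergosterol genes 6 fell (24%), all to 0%, including ERG3 (97.3% and 96.8%, fold 1.60 and 1.64) and ERG25 (80.8% and 80.4%, fold 1.41 and 1.45), and no base of the list was covered without the domain. Of 93 ribosome biogenesis genes 12 fell (12.9%), with NOP56 and NOP58, core proteins of box C/D snoRNPs, at 0% in each and NOP1, the methylase of these particles, at 54.4% and 40.9% from 100%. All 9 bound genes of this list fell, against 67.4% of all bound coding regions, but NSR1 and CBF5 kept 70.7% and 56.0% in replicate 1. Of 75 amino acid biosynthesis genes 11 fell (14.7%), among them 7 of the 8 bound by Hda1-18myc (87.5%, against the same 67.4%). The eighth, ILV5, with Untag peaks over 75.1% and 76.3%, was covered to 100% and 98.7% without the domain. Of 50 respiration genes 5 fell (10%), such as NDE1 and QCR6, from 100% to 0%. Of 33 glucose-repressed, 61 meiosis and 56 mitochondrial ribosomal protein genes, 0, 1 and 2 fell (0%, 1.64% and 3.57%) and none was bound. In all, 166 of the 443 coding regions that fell were in a list and 277 in none.

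The libraries labelled with an S. pombe spike-in gave a second look at the same strains. Hda1-18myc had 983 and 909 peaks there, Hda1(arb2 delta)-18myc 628 and 59, and Untag 235 and 10, so the replicates without the domain and the Untag replicates stood far apart. Of the 234 lost regions, 212 and 191 had a peak in the Hda1-18myc libraries of this set and 46 and 0 in those without the domain. Of the 345 shortened regions, 345 in each and then 333 and 43 did, and of the 24 kept regions 24 in each and then 23 and 8. By the same rule 577 of all coding regions (9.61%) fell in the spike-in set, and 342 (77.2%) of the 443 did, against 27 (19.3%) of the 140 bound coding regions that had not fallen. No coding region rose there. Without the library of 59 peaks 30 (0.5%) rose, and the counts that fell stayed at 577, 342 and 27. The falls in this set thus rested on 1 library without the domain. In that library 5 tRNA genes were at least 50% covered, against 233 in the other without the domain and 270 in each Hda1-18myc library. Several genes given above at 0% had peaks in replicate 1 without the domain of this set. KAR2 was covered to 95.3% there, NDE1 to 82.4%, NOP58 to 70.4%, SCW4 to 67.5%, NOP56 to 67.1%, CPR1 to 47.9% and HSP60 to 45.3%. The tRNA gene YNCI0003C was covered to 100%. Others, such as TKL1, ERG3, CWP1 and QCR6, had no peak in either replicate.

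Acetylation of histone H4, a mark that Hda1 removes, was measured without spike-in in wild-type and hda1-/- cells, 2 libraries each. Of all coding regions 265 (4.42%) had more of their length under H4 acetylation peaks in hda1-/- by the same rule, and 723 (12%) had less. Among bound coding regions the share with more was alike whether Hda1 coverage had fallen without the Arb2 domain (74 of 289, 25.6%) or not (39 of 140, 27.9%). Ribosomal protein genes made up most of both. Their mean H4 acetylation coverage went from 34.0% and 31.9% to 62.4% and 61.0% in the 81 that fell, and from 14.6% and 13.6% to 49.6% and 48.4% in the 56 others. In other bound coding regions it went from 37.8% and 38.6% to 41.8% and 41.4% in the 208 that fell, with more in 19 (9.13%), and from 15.6% and 14.8% to 15.6% and 17.6% in the 85 others, with more in 3 (3.53%). H4 acetylation of the Hda1(arb2 delta)-18myc strain was not analysed here.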

How the data were processed

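The authors aligned reads with Bowtie2 2.2.5, filtered with Picard 2.6 and called peaks per library with MACS2 2.1.0 at q = 0.05. The control of the anti-myc peak calls is not given in the sources used here, and the paper's methods describe a spike-in for these ChIPs, whereas the labels divide libraries with and without one. The deposited columns used were peak and summit positions, the fold enrichment (a ratio over the control) and −log10 q. Positions are counted from 1. Submitters' notes name R64 and sacCer3 and the methods an earlier release, so genes came from an R64 gene table and none of its coordinates is printed; overlaps were repeated with the table moved by 200 bp. 1 mitochondrial Untag peak was left out. Merging, coverage and calls were computed with Python 3.11.15, numpy 2.4.6 and pandas 2.3.3 and tested on simulated data.

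Named were the 10 highest bound regions, the 10 largest falls with ties by fold, the 10 highest kept regions, the rises, the regions without an Hda1-18myc peak, the genes the study follows, and members of 16 lists with high Hda1-18myc coverage. Other list members, lost and RNA genes were chosen after their values were seen. Members and lists were chosen with earlier results of these data known. Alternatives were stricter peaks (−log10 q of at least 5), equal covered length, Untag peaks left out, a wider margin, at least 50% of a region covered, each library left out and a replicate block.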

Additional observations from a re-analysis of the deposited data

How the results depend on the processing

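Ribosomal protein coverage was lower without the Arb2 domain under the alternatives tried except equal covered length, where it was higher by 20.2 percentage points. At equal covered length 2 regions were lost and 180 shortened, and 48 coding regions fell and 40 rose. Of those 40, 16 were among the 443 that fell otherwise. With Untag peaks left out 14 regions were kept and 4 coding regions rose, RPL21B, RPL39, RPS19A and YFL067W. With at least 50% of a region covered counted as present, 182 were shortened. With a margin of 25 points 149 were shortened, 220 kept, and 292 coding regions fell. With the gene table moved up by 200 bp 0 coding regions rose. Same-numbered libraries did not deviate together (r = -0.091 over 937 coding regions), so numbers were not taken to pair them. With the replicate block 11 regions were kept and 451 coding regions fell. Leaving out 1 library gave 234 to 411 regions lost, 351 to 522 shortened, 3 to 24 kept, 444 to 550 coding regions that fell and 1 to 2 that rose, the extremes of lost (411) and kept (3) without Hda1(arb2 delta)-18myc replicate 1, and of shortened (522) without its replicate 2, and 10 were kept without Hda1-18myc replicate 2; a class then rested on fewer libraries. Ribosomal protein coverage fell by 16.2 points without Hda1(arb2 delta)-18myc replicate 2 and by 50.8 without its replicate 1. The tRNA gene count, whose alternatives were chosen after seeing the data, was 155 of 183 at equal covered length. Depth is unknown, so a missing peak means that none was called, not that Hda1 was absent.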
